A study of Homo sapiens with 7 samples.

Results

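The replication-dependent histone genes were taken from the expression table of HepG2 as the rows on main chromosomes whose gene column, split at commas, held a symbol that begins with HIST1H, HIST2H, HIST3H or HIST4H. The rule used names only and no measured value. It took 73 rows with 70 distinct symbols, of 22118 rows with a gene symbol on main chromosomes and 30032 rows in all.

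The samples came from HepG2, a human liver cancer cell line, grown in culture with no treatment named in the labels. Each of 7 samples was a separate assay: RNA-Seq, native MNase-Seq for nucleosome positions, and ChIP-Seq of the histone marks H3K9me3, H3K27me3, H3K27ac, H3K9ac and H3K4me3. The study asked how the marks on single nucleosomes are arranged at genes and how this relates to expression. There was 1 sample per assay and no control group, so no P value could be computed, and intervals are exact 95% binomial intervals (Clopper-Pearson) that cover counting error only.

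The core histones H2A, H2B, H3 and H4 form the protein spool of the nucleosome, and the linker histone H1 binds the DNA between nucleosomes. Their replication-dependent genes are short, lack introns, lie together in clusters and are transcribed mainly while DNA is copied. Their messenger RNAs end in a stem-loop bound by SLBP instead of a poly(A) tail, whereas replication-independent variants such as H3.3 come from ordinary genes with introns and poly(A) tails.

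Expression was given as FPKM, the number of sequenced fragments scaled by transcript length and by the fragments mapped, in 2 columns called run 1 and run 2. Both belong to the same sample, so their mean was used as 1 replicate, and the difference between them was the only available measure of error. The library was made from total RNA depleted of ribosomal RNA with an mRNA library kit, and whether RNA with a poly(A) tail was selected is not given in the sources used here. The FPKM values therefore describe this library, and how fully RNA without a poly(A) tail was recovered was not tested. Histone paralogs are nearly identical in their coding parts, and how the authors assigned reads that match several of them is not given, so values of single members are uncertain.

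A nucleosome position counted for a row if its midpoint lay within 2 kb of the row's span. A position that carried H3K4me3, H3K9ac and H3K27ac and neither of the other marks is called trivalent. These 3 marks are known from active promoters, H3K27me3 from Polycomb repression and H3K9me3 from heterochromatin. In total, 28 rows shared their span with another named row and the 73 rows had 58 distinct spans, so the same position often counted for several rows. Intervals over rows treat such rows as separate, although they are not independent.

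The genes were split by annotation into 9 groups, with members under 200 kb apart in the same group. Coordinates of loci and positions are hg19, the build that the submitters' processing notes name. The largest cluster lay on chromosome 6 from 26017260 to 26286185, with 31 rows over 268.9 kb. Further along chromosome 6 were clusters of 5 rows (27069720 to 27115346) and 18 rows (27773187 to 27926158), and HIST1H2AA and HIST1H2BA lay apart from them (25652429 to 25737599). Chromosome 1 held 11 rows of the HIST2 cluster (149752428 to 149859466), 3 rows of the HIST3 cluster (228612546 to 228647894) and the separate rows of HIST2H2BA (120906034 to 120914842) and HIST2H2BF (149397114 to 149399229). HIST4H4 was alone on chromosome 12 (14919041 to 14924118).

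Most of these genes had a low FPKM compared with genes of all lengths. Compared with other short loci they were not low by the median or the share at 1 or more, but their upper values were lower. A mean FPKM of 1 or more was found for 24 of 73 rows (32.9%, 95% CI 22.3 to 44.9), against 51.4% of all named loci and 17.8% of the 2847 named loci of at most 5 kb. The median was 0.344, against 1.24 for all named loci. The 46 members of at most 5 kb had a median of 0.181 and 23.9% of them had an FPKM of 1 or more, while the 2801 other named loci of at most 5 kb had a median of 0 and 17.7%. The 90th percentile was 1.78 for these members and 10.8 for these other loci. The values of all members added up to 120.7 in run 1 and 135.7 in run 2, which was 0.0141% and 0.0138% of the sum over the whole table. The 6 highest rows gave 60.2% of the member sum in run 1 and 57.6% in run 2.

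The low values were spread over a range and were not all at the bottom. FPKM was listed at 0 in both runs for 23 rows (background 22.2% of all named loci, 60.5% of those of at most 5 kb), and 28 rows (38.4%) were under 0.1 (background 36.6% and 72.6%). Another 21 rows (28.8%, 95% CI 18.8 to 40.6) lay from 0.1 to under 1, where 12% of all named loci and 9.52% of the short loci were found.

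The active marks were frequent beside them. A trivalent nucleosome was found near 47 of 73 rows (64.4%, 95% CI 52.3 to 75.3), against 59.5% of all named loci and 19.8% of named loci of at most 5 kb. Since a longer span catches more positions, the short members are the like comparison: 28 of the 46 members of at most 5 kb (60.9%, 95% CI 45.4 to 74.9) had a trivalent nucleosome. H3K4me3 was near 56 rows (background 70.1% of all, 27.3% of short loci), H3K9ac near 52 (69.6% and 25.9%) and H3K27ac near 51 (63.7% and 22.1%). The short members thus had active marks about as often as named loci of any length.

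H3K27me3 was rare, while H3K9me3 was near the level of other short loci. H3K27me3 lay near 4 rows (background 23.5% of all and 10.2% of short loci) and near 0 of the 46 short members, and H3K9me3 near 10 rows (26.7% and 5.13%) and 3 short members (6.52%). The 4 rows with H3K27me3 were HIST2H2BA, HIST1H2AA, HIST1H2BA and HIST1H2BO,OR2B6, each with 1 such position and a span over 8 kb. Nucleosome positions were listed but none was marked near 12 rows (background 15.2% and 55.7%). For 4 more rows, HIST2H4B, HIST2H4A and both rows of HIST2H3A, no nucleosome position was listed (background 0.651% and 2.6%) and FPKM was listed at 0. They lie in the part of the HIST2 cluster that is present as near-identical copies, so a lack of uniquely placed reads and a lack of signal cannot be told apart.

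**Figure D1:**
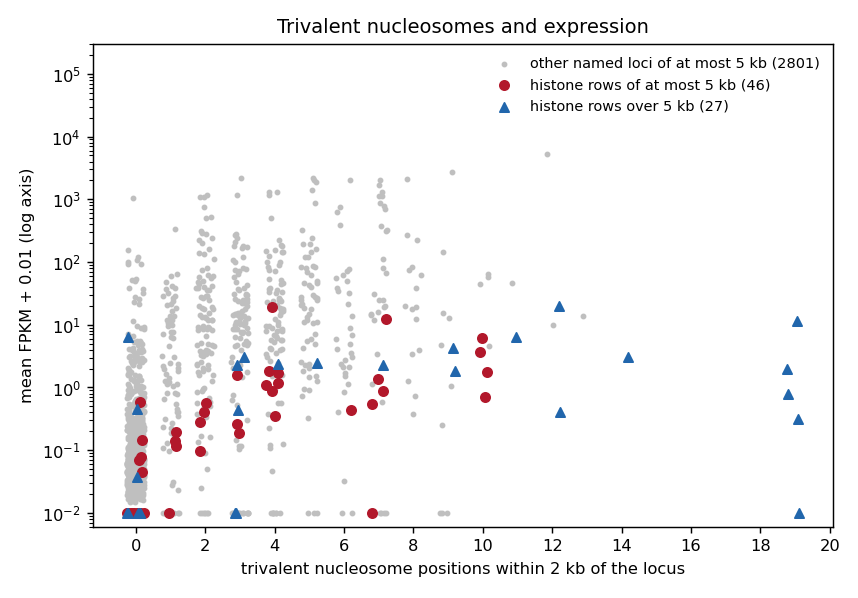
Each point is a row of the expression table, with the number of trivalent nucleosome positions within 2 kb of the locus on the x axis (points spread sideways for visibility) and mean FPKM + 0.01 on a log y axis. Histone rows are of at most 5 kb (red circles, 46) or over 5 kb (blue triangles, 27), and other named loci of at most 5 kb are grey (2801). Among loci with a trivalent nucleosome, the histone rows lie mostly at lower FPKM, except for spans of at most 1 kb. Grey loci reach 13 trivalent nucleosomes and histone rows 19, so the highest counts have no grey loci beside them.

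Expression at a given number of trivalent nucleosomes was lower than at other genes. The 47 rows with a trivalent nucleosome had a median FPKM of 0.879 (quartiles 0.284 and 2.33), while the 13159 named loci with one had a median of 8.85 (quartiles 2.03 and 23.6). Of these 47 rows, 24 were under an FPKM of 1 (51.1%, 95% CI 36.1 to 65.9), against 19.2% of the named loci with a trivalent nucleosome. With 1 row for each distinct span it was 15 of 35. Within 2 kb a position can belong to a neighbouring gene, and with positions inside the span only it was 17 of 40. As a share of all rows this combination was found in 32.9% of members (background 11.4% of all named loci and 4.85% of those of at most 5 kb).

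The difference was seen at each count of trivalent nucleosomes. With 1 to 3 of them the median FPKM was 0.219 over 16 member rows and 6.38 over all named loci. With 4 to 6 it was 1.41 over 10 member rows and 10.6, and with 7 or more it was 1.84 over 21 member rows and 11.2. Among loci of 1 to 5 kb with a trivalent nucleosome, 15 members had a median of 1.16 and 496 other loci one of 11.7. Among loci of at most 1 kb the order was the opposite, with 0.344 for 13 members and 0 for 40 other named loci, whose median span was 102 bp.

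Within the family, rows with more trivalent nucleosomes had a higher FPKM. Across the 73 rows Spearman's rho was 0.689 and Pearson's r on the log2(FPKM + 0.01) scale was 0.527, and across the 45 rows that shared their span with no other named row they were 0.874 and 0.799. Pearson's r across the family was lower, 0.379, for rows with an FPKM above 0 in both runs. It was 0.388 with positions counted inside the span only. Across all named loci rho was 0.664 and r was 0.515. These are descriptions across rows of the same libraries, and neighbouring rows share positions.

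The share of rows with a trivalent nucleosome differed from the background mainly under an FPKM of 1, most in percentage points from 0.1 to under 1 and, as a ratio to short loci, most under 0.1. Of the 21 rows with an FPKM from 0.1 to under 1, 18 had a trivalent nucleosome (85.7%, 95% CI 63.7 to 97.0), against 47.9% of all named loci and 26.6% of short loci in the same range. At an FPKM of 1 or more it was 23 of 24 rows, against 93.6% and 83.9%. Under 0.1 it was 6 of 28 rows (21.4%), against 15.5% and 3.19%. The members and the other loci were thus closest at an FPKM of 1 or more.

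Looking at single positions, 2831 distinct nucleosome positions lay within 2 kb of the members, and 281 of them (9.93%, 95% CI 8.85 to 11.1) carried at least 1 mark. The share was 2.0% near all named loci and 6.26% near named loci of at most 5 kb. The trivalent combination was the most frequent with 130 positions, 46.3% of the marked ones (95% CI 40.3 to 52.3), against 39.4% near short loci. H3K4me3 alone followed with 53 positions and H3K4me3/H3K9ac with 32. H3K27me3 was on 3 positions (0.106%, against 0.589% near short loci) and H3K9me3 on 8 (0.283%, against 0.224%), of which 2 also carried all 3 active marks.

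**Figure D2:**
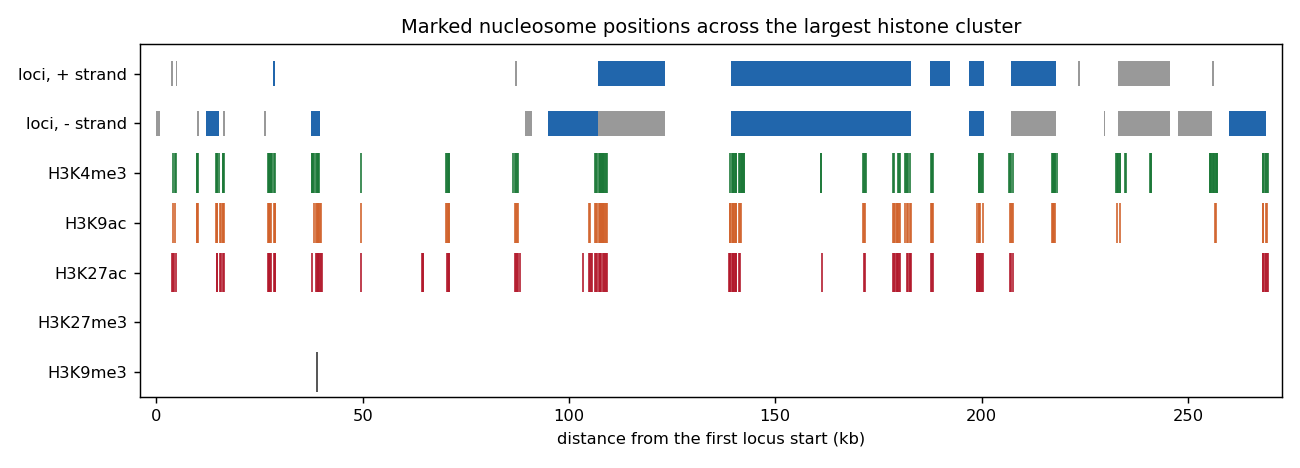
Marked nucleosome positions (vertical lines, a row per mark) and histone loci (bars, by inferred strand) across the chromosome 6 cluster of 31 rows, with the distance from the start of the first locus in kb on the x axis. Blue bars are spans with a mean FPKM of 1 or more for at least 1 row and grey bars are spans under 1. The active marks form narrow groups, many of them at the ends of loci, H3K27me3 is on 0 positions and H3K9me3 on 1.

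The clusters differed in how much of their chromatin was marked. The counts cover all positions from the first to the last member, so they include marks at other genes. In the largest cluster, 166 of 1482 positions carried a mark (11.2%) and 70 were trivalent, and 12 of 31 rows had an FPKM of 1 or more. This cluster also holds HFE, a non-histone gene with an FPKM of 2.49 and 4 trivalent positions. In the cluster of 18 rows it was 63 of 839 positions (7.51%) with 37 trivalent and 6 rows at 1 or more, and in the cluster of 5 rows it was 16 of 256 (6.25%) with 7 trivalent and 2 rows. The HIST2 cluster had 34 marked of 234 positions (14.5%), 16 of them trivalent, and 3 of 11 rows at 1 or more. Its 234 positions are few for 107.0 kb, against 1482 over 268.9 kb in the largest cluster, and part of it had no listed position. Its share therefore rests on a smaller denominator and is not directly comparable with the others.

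The outlying genes differed. None of the 207 positions in the HIST3 cluster carried a mark, which allows a share of up to 1.45% (3 counts of 207). In the HIST1H2AA and HIST1H2BA region 4 of 480 positions were marked and none was trivalent, and this region also holds SCGN, a non-histone gene with an FPKM of 8.78. HIST2H2BA had 2 marked of 37 positions (5.41%), 1 with H3K27me3 and 1 with H3K9me3, and the separate row of HIST2H2BF had none of 13, which allows a share of up to 23.1%. HIST4H4, which encodes histone H4, had 8 marked of 41 positions, 5 of them trivalent.

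Among the linker histones, HIST1H1C was by far the highest single-gene row. HIST1H1C (chromosome 6, 26054733 to 26056991) had FPKM values of 17.2 (run 1) and 20.98 (run 2), with 4 trivalent positions of 32. HIST1H1B had 0.380 and 0.129 with 3 trivalent positions, and HIST1H1T, the testis H1 gene, had 0.0501 and 0.161 with 1. The trivalent position near HIST1H1T lay outside its span, on the side of HIST1H4C. HIST1H1A had 0 and 0.0711, and none of its 29 positions carried a mark.

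Over the 5 rows of H1 genes the median FPKM was 0.106. HIST1H1D was listed at 0 in both runs, with 3 trivalent positions in a span that it shared with HIST1H3E. HIST1H1E was joined with HIST1H2BD in a row at 12.9 and 10.3, and the part of each gene in this value cannot be told apart. The H1 genes thus ranged from among the highest members to an FPKM of 0.

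The promoter of HIST1H1C is shown because it was the highest H1 row and holds the letters particular to H1 promoters described further on. It is the window from 250 bases before to 50 bases after the start of the gene in RefSeq (GRCh38.p14, chr6:26056421-26056720, minus strand). Capitals mark a CCAAT box (CCAAT) and H1 boxes (AAACACA) on either strand.

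HIST1H1C: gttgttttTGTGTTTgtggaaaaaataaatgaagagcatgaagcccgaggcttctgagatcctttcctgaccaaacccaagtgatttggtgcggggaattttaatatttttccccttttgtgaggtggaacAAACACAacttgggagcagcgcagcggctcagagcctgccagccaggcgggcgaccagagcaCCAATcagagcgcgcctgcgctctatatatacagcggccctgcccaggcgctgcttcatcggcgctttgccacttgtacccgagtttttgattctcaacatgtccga

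The H2A genes held the row with the highest mean of the family. HIST1H2AC (chromosome 6, 26124337 to 26140444) had 20.5 in run 1 and 19.2 in run 2, with 12 trivalent positions. A second row of HIST1H2AC with the same span had 0.414 and 0.392, so the gene was reported in separate parts. HIST1H2AM (chromosome 6, 27859729 to 27861079) had 2.48 and 4.93.

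All 10 marked positions of the 25 near HIST1H2AM were trivalent. In the HIST2 cluster, HIST2H2AC had 1.72 and 1.78 and HIST2H2AB had 0.242 and 1.16, each with 10 trivalent positions that they share. The rows of HIST2H2AA4 were listed at 0.177 and 0, and at 0 and 0, with 2 and 3 trivalent positions. HIST3H2A had 0 and 0.274 and the testis gene HIST1H2AA was listed at 0 in both runs, both without a trivalent position.

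Over the 16 H2A rows the median FPKM was 0.374, 5 rows had 1 or more and 12 had a trivalent nucleosome. A row that joined HIST1H2AI with HIST1H3H had 12.6 and 11.6 with 7 trivalent positions. The 2 other rows of HIST1H3H in that span had 1.62 and 0.139, and 0 and 0. Of the remaining rows, HIST1H2AE had 1.70 and 1.91 and HIST1H2AK had 1.79 and 1.89, with 4 and 9 trivalent positions, while HIST1H2AB at 0.122 and 0.567 and HIST1H2AL at 0.224 and 0.135 had 4 and 3. HIST1H2AJ was listed at 0, with 2 positions of H3K4me3 and no trivalent one. The expressed H2A rows were thus found in all of the larger clusters but the one of 5 rows, where HIST1H2AG had 0.680 and 0.370 with 7 trivalent positions. A row that joined HIST1H2AD with HIST1H3D had 1.93 and 2.02, in the span of 5 rows described with HIST1H2BE.

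The H2B genes had the highest median FPKM of the core histone classes, 0.785 over 19 rows, and 9 of them had an FPKM of 1 or more. Class medians leave out the 4 rows that join 2 classes, and the classes differ in span. The median span was 8566 bp for H2B, 1276 bp for H4, 516 bp for H2A and 507 bp for H3. An FPKM of 1 or more was found for 50% of members over 1 kb and 6.90% of those of at most 1 kb. HIST1H2BC (chromosome 6, 26112255 to 26124319) had 3.596 in run 1 and 9.33 in run 2 with 11 trivalent positions. HIST2H2BE (chromosome 1, 149856010 to 149858232) had 5.90 and 6.28 with 10, and HIST1H2BN had 3.67 and 4.76 with 9. A row that joined HIST1H2BO with OR2B6, an olfactory receptor gene, had 3.41 and 2.67 with 14 trivalent positions within 2 kb of a span of 64998 bp.

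HIST1H2BK was the only member with an FPKM of 1 or more and no trivalent nucleosome (1 of 73 rows, background 3.28% of all named loci and 2.88% of the short loci). Its values were 5.82 (run 1) and 6.71 (run 2), and its mean was among the 6 highest of the 73 rows. None of the 64 positions within 2 kb of its span (chromosome 6, 27106072 to 27114637) carried any of the 5 marks. HIST1H4I, in the same span, and HIST1H2AH, just beyond it, were listed at 0 in both runs, and the nearest marks at other members, beside HIST1H2BJ and HIST1H2AG, ended at 27101806. With a limit of 5 kb in place of 2 kb, HIST1H2BK had trivalent nucleosomes within reach and 0 rows were of this kind.

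HIST1H2BL had 1.30 and 2.02 and HIST1H2BG had 1.23 and 1.08, each with 4 trivalent positions. HIST1H2BF, at 1.04 and 0.530, HIST1H2BB, at 0.304 and 0.550, and HIST1H2BM, at 0.134 and 0, had a mean under 1. HIST1H2BB had 6 trivalent positions and HIST1H2BM had none.

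Other H2B rows were listed at 0. HIST3H2BB, HIST1H2BA, HIST1H2BE, HIST1H2BI, HIST2H2BA and the single-symbol row of HIST2H2BF were listed at 0 in both runs. HIST1H2BE lay in a span of 43780 bp that 5 rows shared, with 19 trivalent positions in all, so these cannot be assigned to it. HIST2H2BC, a transcribed pseudogene in RefSeq, had 2.69 and 3.34 with 3 trivalent positions, in a span that it shared with HIST2H2AA4.

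Promoters of H2A and H2B genes are shown for a gene with trivalent marks at each marked position (HIST1H2AM, chr6:27893136-27893435, minus strand), an expressed gene with trivalent marks (HIST2H2BE, chr1:149886633-149886932, minus strand), the expressed gene without marks (HIST1H2BK, chr6:27146809-27147108, minus strand) and a gene with H3K4me3 but an FPKM of 0 (HIST1H2BI, chr6:26272681-26272980, plus strand). Windows and build are as for HIST1H1C. Capitals mark matches on either strand to the CCAAT box and to the TATA box, spelled TATAAA. They also mark the octamer ATTTGCAT.

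HIST1H2AM: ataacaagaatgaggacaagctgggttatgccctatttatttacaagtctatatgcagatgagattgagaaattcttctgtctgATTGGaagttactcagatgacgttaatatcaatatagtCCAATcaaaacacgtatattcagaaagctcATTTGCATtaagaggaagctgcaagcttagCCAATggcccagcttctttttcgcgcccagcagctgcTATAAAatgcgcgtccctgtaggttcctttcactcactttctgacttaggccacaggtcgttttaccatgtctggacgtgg

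HIST2H2BE: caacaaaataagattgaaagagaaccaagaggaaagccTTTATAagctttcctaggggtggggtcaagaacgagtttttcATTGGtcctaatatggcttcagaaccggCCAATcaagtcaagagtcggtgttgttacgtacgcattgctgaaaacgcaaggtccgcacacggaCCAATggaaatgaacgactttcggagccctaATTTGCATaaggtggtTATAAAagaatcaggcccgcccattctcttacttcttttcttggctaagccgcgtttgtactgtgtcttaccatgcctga

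HIST1H2BK: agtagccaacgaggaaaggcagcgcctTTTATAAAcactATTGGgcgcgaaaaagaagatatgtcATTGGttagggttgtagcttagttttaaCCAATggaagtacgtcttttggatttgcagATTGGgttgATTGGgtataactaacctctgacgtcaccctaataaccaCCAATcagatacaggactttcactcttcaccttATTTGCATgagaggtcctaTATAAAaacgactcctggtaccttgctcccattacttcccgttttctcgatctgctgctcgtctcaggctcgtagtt

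HIST1H2BI: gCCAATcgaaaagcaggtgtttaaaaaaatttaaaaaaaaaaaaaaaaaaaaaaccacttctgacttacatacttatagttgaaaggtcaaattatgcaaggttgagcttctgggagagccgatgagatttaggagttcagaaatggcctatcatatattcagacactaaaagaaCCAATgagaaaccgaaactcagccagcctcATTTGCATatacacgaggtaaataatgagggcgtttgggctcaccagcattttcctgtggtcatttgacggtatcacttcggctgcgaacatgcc

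All 4 windows hold CCAAT boxes and the octamer, and HIST1H2BI alone among the 4 lacks TATAAA. The promoter of HIST1H2BK, with none of the 5 marks, thus holds the same motif letters as that of HIST2H2BE, with 10 trivalent positions.

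The H3 genes had the lowest median, 0.0269 over 13 rows, with 3 rows at 1 or more and 7 with a trivalent nucleosome. These rows include both of HIST2H3A, without a listed nucleosome position, and leave out the rows that join an H3 gene with another class. The ranking of classes was not adjusted for span or joined rows. HIST1H3E had 1.70 in run 1 and 2.86 in run 2, HIST1H3C had 1.02 and 1.66, and HIST1H3B had 0.574 and 1.60. These 3 had 3, 7 and 4 trivalent positions. HIST3H3, the testis H3 gene, had 0.118 and 0, without a marked position. HIST1H3J had 0.118 and 0.139 with 1 trivalent position, which lay inside the span of HIST1H2AM. HIST1H3I was listed at 0 with no marked position among 29. HIST1H3A was listed at 0 with 1 trivalent position, and the row of HIST2H2BF joined with HIST2H3D had 0.459 and 0.404 with 3.

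The H4 genes had a median of 0.284 over 16 rows, and 3 rows had 1 or more. HIST4H4 had 1.24 in run 1 and 3.62 in run 2 with 5 trivalent positions, HIST1H4H had 2.13 and 2.62 with 4, and HIST1H4E had 1.78 and 1.36 with 3. HIST1H4C had 1.08 and 0.653, a mean just under the limit, with 4 trivalent positions. Between these were HIST1H4B (0.410 and 0.756), HIST1H4D (0.1004 and 0.501), HIST1H4J (0.463 and 0.333), HIST1H4A (0.167 and 0.200) and the rows of HIST1H4K (0.611 and 0.490, and 0.284 and 0.252). HIST1H4B had 3 positions each of H3K4me3 and H3K9ac and no H3K27ac, and the others had 1 or more trivalent positions. HIST1H4F, HIST1H4G and HIST1H4L were listed at 0 and had no marked position among 23, 25 and 28. The H4 genes therefore ranged from rows with trivalent nucleosomes and an FPKM over 1 to rows with no marked position and a listed FPKM of 0 in the HIST1 clusters.

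The promoter of HIST1H4F (GRCh38.p14, chr6:26240143-26240442, plus strand) is shown as that of a gene with neither marks nor FPKM. Capitals mark a CCAAT box.

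HIST1H4F: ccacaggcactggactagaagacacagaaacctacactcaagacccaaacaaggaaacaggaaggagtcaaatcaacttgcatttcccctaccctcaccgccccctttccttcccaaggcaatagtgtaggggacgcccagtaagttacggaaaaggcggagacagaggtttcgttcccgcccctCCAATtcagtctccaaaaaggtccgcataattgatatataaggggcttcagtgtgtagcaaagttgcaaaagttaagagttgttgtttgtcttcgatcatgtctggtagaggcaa

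**Figure D3:**
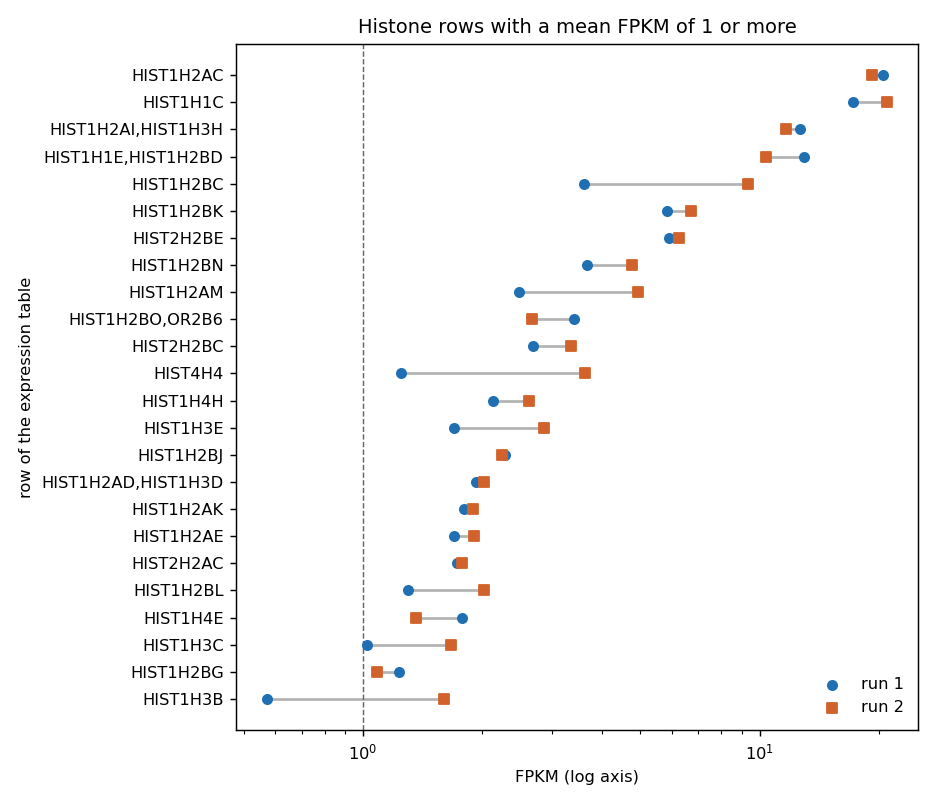
FPKM in run 1 (blue circles) and run 2 (orange squares) on a log axis for the 24 rows with a mean FPKM of 1 or more, joined by a line, with the limit of 1 dashed. The runs lie close together for most rows and furthest apart for HIST4H4, HIST1H3B and HIST1H2BC.

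The runs were far apart more often for these genes than for named loci of all lengths. Of the 24 rows at 1 or more, 17 were higher in run 2, and the median log2 ratio of run 2 to run 1 was 0.19, while over the 11312 named loci compared it was -0.0048. The runs were over 2-fold apart for HIST4H4, HIST1H3B and HIST1H2BC, which is 12.5% of 24 rows, against 0.354% of the 11312 named loci and 0.416% of the 8170 with an FPKM from 1 to 25. The row of HIST1H3H at 1.62 and 0.139 was under the limit by its mean. The 24 rows had a median FPKM of 2.40 and a median span of 6601 bp, against 11.9 and 45570 bp for all named loci at 1 or more. Short loci with a low FPKM rest on fewer fragments, and the runs were not compared over short loci. Since the runs belong to 1 sample, it cannot be told apart whether counting error, sequencing, library or culture made them differ.

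The marks lay in short stretches rather than across the clusters. Marked positions at most 1 kb apart formed 49 stretches with a median length of 1085 bp, 25 of them with 5 or more marked positions and 29 with a trivalent one. Near all named loci 10554 of 44653 stretches had 5 or more marked positions, and near named loci of at most 5 kb 385 of 1301. Length and the share with a trivalent position were not compared with other loci. The longest measured 4455 bp (chromosome 6, 26121997 to 26126451), lay between HIST1H2BC and HIST1H2AC and held 12 trivalent of 19 marked positions. A stretch at HIST1H2AM and HIST1H2BO (27860422 to 27863706) held 12 of 13, and a stretch at HIST2H2BE, HIST2H2AC and HIST2H2AB (chromosome 1, 149857022 to 149860019) held 10 of 12. The 3 stretches each overlap an H2A and an H2B gene that lie side by side. A stretch at the start of the span of 5 rows that includes HIST1H2BE and HIST1H1E (chromosome 6, 26155897 to 26159816) held 10 of 18, and that of HIST1H1C (26054837 to 26057366) held 4 of 12.

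**Figure D4:**
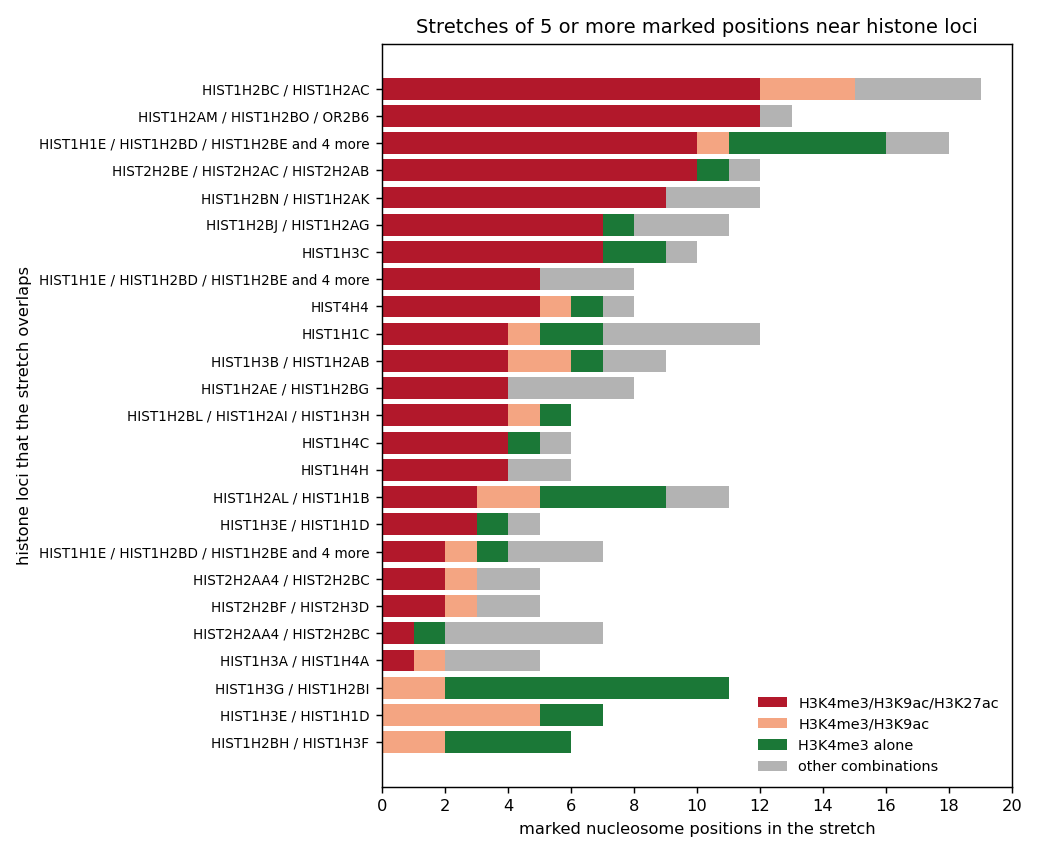
Number of marked nucleosome positions (x axis) in the 25 stretches with 5 or more of them, by combination of marks, named on the y axis by the histone loci that each overlaps. Trivalent positions (red) reach 12 in a stretch, and 3 stretches have H3K4me3 alone (green) or with H3K9ac (light red) and no trivalent position.

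In 3 stretches with 5 or more H3K4me3 positions H3K27ac was absent, and these were chosen after their values were seen. At HIST1H3G and HIST1H2BI (chromosome 6, 26272452 to 26274503) 11 positions carried H3K4me3, 9 of them alone and 2 with H3K9ac. At HIST1H2BH and HIST1H3F (26249852 to 26250981) it was 4 alone and 2 with H3K9ac, and at HIST1H3E and HIST1H1D (26234362 to 26235501) 2 alone and 5 with H3K9ac. These were 3 of the 20 stretches with 5 or more H3K4me3 positions (15.0%, 95% CI 3.21 to 37.9), against 4.68% near all named loci and 5.64% near short loci, within the interval. Shorter stretches with H3K4me3 and no H3K27ac lay at HIST1H4B, at HIST1H2BH and HIST1H3F, and in the span of HIST1H2BJ.

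The genes at the 3 longer stretches were mostly low. HIST1H2BJ, whose span holds a shorter one, had a mean of 2.26 with 7 trivalent positions elsewhere. HIST1H3G had 0.00590 in run 1 and 0.0479 in run 2, and HIST1H2BI, HIST1H3F and HIST1H1D were listed at 0 in both. HIST1H2BH had 0.322 and 0.573, and HIST1H3E had 1.70 and 2.86. HIST1H3E shares its span with HIST1H1D and, by the inferred strand, starts at the other end of it, where a separate stretch (26223854 to 26224896) held 3 trivalent positions. The stretch without H3K27ac lay at the start of HIST1H1D.

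Where the spans of histone genes lie back to back by the inferred strand, the region between them showed both patterns. Starts are here the ends of these spans. Between HIST2H2BE and HIST2H2AC, whose starts are 292 bp apart, all 5 positions from 500 bp before to 500 bp after the gap were trivalent. Between the spans of HIST1H3G and HIST1H2BI, 57 bp apart, 6 of 7 positions carried H3K4me3 and 0 carried H3K27ac. The span of HIST1H3G measures 8269 bp, and its RefSeq promoter window lacks the octamer found 45 bases before HIST1H2BI. The RefSeq start of HIST1H3G thus lies elsewhere, and this pair is back to back by span only. Between HIST3H2A and HIST3H2BB, 174 bp apart, none of 6 positions was marked. The same arrangement of H2A and H2B genes thus occurred with all 3 active marks and with none.

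Between HIST1H2BJ and HIST1H2AG, 221 bp apart, 3 of 7 positions were trivalent, and HIST1H2BJ was the higher of the genes with 2.28 and 2.24, against 0.680 and 0.370. Between HIST1H2BB and HIST1H3C, 1753 bp apart, 7 of 13 were trivalent. Between HIST1H2AJ and HIST1H2BM, 303 bp apart, 0 of 6 were trivalent and 2 carried H3K4me3.

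The trivalent nucleosomes lay on both sides of the start. Around the 13 members of at most 1 kb with a trivalent nucleosome, counted gene by gene, 25 lay within 2 kb before the start and 32 within 2 kb after it, or 1.92 and 2.46 per gene. At the 6606 other named loci with a span of their own and an FPKM of 1 or more it was 0.692 before and 2.26 after. The latter loci were not chosen for having a trivalent nucleosome, and 1075 of them had none. At 36 other named loci of at most 1 kb with a trivalent nucleosome it was 1.81 before and 1.22 after, so positions before the start were not particular to the histone genes. Of the 13 genes, 8 had more after the start and 5 had more before it. Many windows before a start hold a neighbouring histone gene, so these positions also belong to neighbours. A position near several of the genes was counted for each of them. It could thus count as before 1 start and as after another, so the counts are not of distinct positions. The strand was inferred from the order of rows and matched RefSeq for 58 of 66 rows compared, and for 20 of the 24 among them of at most 1 kb.

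The promoter windows in RefSeq were available for 63 of the 70 symbols. Their median GC content was 43.0%, against 58.3% over all 27305 promoters of the same length, with a range from 36.3% to 59.7%. The TATA box letters TATAAA were in 41 of 63 (65.1%), against 12% of all promoters. The CCAAT letters were in 53 of 63 (84.1%), against 35.7%. Both were searched on both strands, and no searched motif contains another.

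The motifs divided the classes. CCAAT was in all 50 windows of H1, H2A, H2B and H3 genes and in 3 of 13 windows of H4 genes. The octamer ATTTGCAT, known as the OCT-1 site of H2B promoters, was in 14 of 18 H2B and 11 of 15 H2A windows, against 1.80% of all promoters. It was in 1 of 11 H3 windows, that of HIST1H3D, whose window holds the same letters as that of HIST1H2AD, and in 0 of 6 H1 and 0 of 13 H4 windows. The H1 box AAACACA was in 6 of 6 H1 windows and in 2 of 57 others, against 5.76% of all promoters. A match is a description of letters and not of a bound factor, and genes that start back to back a short distance apart share part of their windows.

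**Figure D5:**
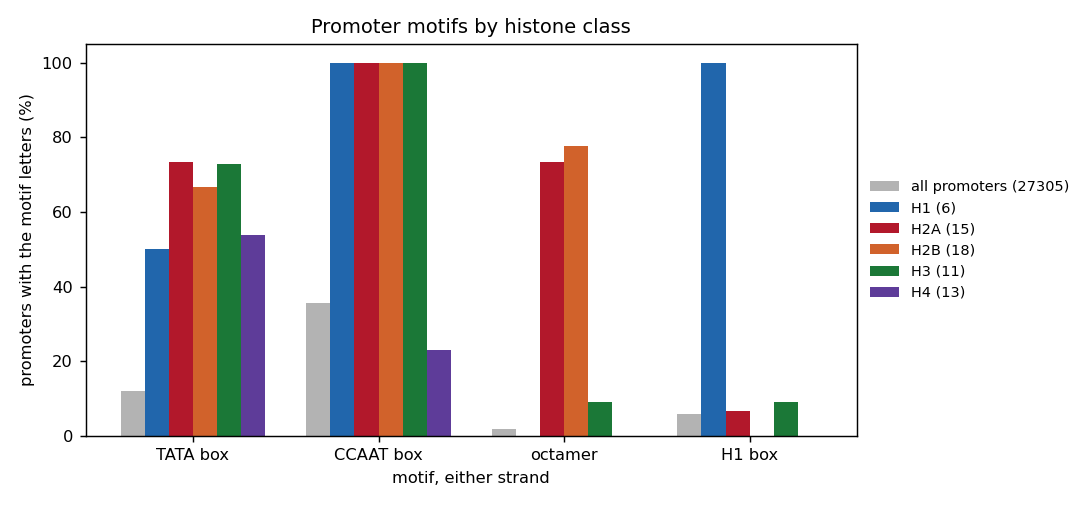
Share of promoter windows of 300 bases that hold each motif on either strand, in percent, for all RefSeq promoters (grey, 27305) and for the H1, H2A, H2B, H3 and H4 genes (numbers of windows in the legend). CCAAT is in all windows but those of H4, the octamer is mainly in H2A and H2B, and the H1 box is in all H1 windows.

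The genes that make and handle histone messenger RNA were expressed throughout. All 13 genes of a list of histone transcription and 3′ processing factors had an FPKM of 1 or more and a trivalent nucleosome, with a median of 7.35. Over all named loci 51.4% had an FPKM of 1 or more, and 93.6% of those had a trivalent nucleosome, so the marks of the list were near those of expressed genes in general. CPSF3, the endonuclease that cuts histone pre-mRNA, had 55.3 in run 1 and 53.1 in run 2, SLBP, the stem-loop binding protein, had 52.3 and 54.6, and CPSF2 and LSM10, further processing factors, had 24.7 and 25.1, and 23.5 and 24.3. NPAT, the histone-specific coactivator, had 5.08 and 5.34. All 14 histone chaperones had 1 or more (median 27.1) and 13 had a trivalent nucleosome (background as above, 51.4% and 93.6%), with NAP1L1 at 115.4 and 112.1.

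The replication-independent variants had far higher values than the members. Of 19 genes on the list 17 were found, 11 had an FPKM of 1 or more (background 51.4%) and 14 had a trivalent nucleosome (background 59.5%), with a median of 19.4. H3F3A, which encodes H3.3, had 396.9 and 405.9, H2AFZ, which encodes H2A.Z, had 375.1 and 383.2, H3F3B had 207.6 and 194.5, and H1F0 had 150.1 and 149.0. The germ-cell variants H1FOO, H1FNT, H2AFB1, H2BFM and H2BFWT were listed at 0. Each of these 4 variants was far above the highest member, HIST1H2AC.

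The cell line matched its label by its markers. All 7 liver markers had an FPKM of at least 56.6, with ALB, AFP and apolipoprotein genes among them. Of 8 markers of other cells 1 had an FPKM of 1 or more (ACTA2, 33.9) and 3 were listed at 0.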

How the data were processed

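Nucleosome positions, histone marks and RNA were measured in HepG2, in 1 sample per assay. The authors called nucleosome positions from native MNase-Seq with DANPOS and used NUCLIZE to call the peaks of each mark at them, keeping peaks that passed the cutoffs on P value, false discovery rate and fold enrichment. The paper gives totals of aligned reads for MNase-Seq and ChIP-Seq. The deposited lists hold coordinates and identifiers and no read counts, so the depth at single positions is unknown. The authors deposited FPKM per locus in 2 columns; the submitters' processing notes name TopHat2 2.1.0 and hg19. The table also holds the p-value, q-value and log2 fold change that the authors computed between both columns, which were not used.

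Each peak was assigned to the position whose identifier it carries. Locus starts are counted from 0 in the table and are given here from 1. Correlations used log2(FPKM + 0.01), and stretches joined marked positions at most 1 kb apart. Named genes were the H1 members, members on chromosomes 1 and 12, the 10 highest by FPKM, the 5 with the most trivalent positions, members whose marks and FPKM part ways, carry a repressive mark or differ most between columns, testis genes, and in the context lists the 4 highest and those at 0. Other genes were named after their values were seen. The members and lists were chosen with earlier results of these data known. Symbols were matched to RefSeq through older names (70 of 70), and promoter sequences are from RefSeq (GRCh38.p14). No coordinates were converted between builds. The counting steps were tested on simulated data. Alternatives were other windows, FPKM limits, matches, columns, pseudocount and subsets of rows. The software was pandas 2.3.3, numpy 2.4.6, scipy 1.17.1 and matplotlib 3.10.9 under Python 3.11.15.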

Additional observations from a re-analysis of the deposited data

How the results depend on the processing

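Of 129 values recomputed under alternatives, 104 stayed within their interval or within 1.5 times of the count, 25 moved and 0 reversed. With an FPKM limit of 0.1, 45 rows were at or over the limit, 4 of them without a trivalent nucleosome, and 6 rows with a trivalent nucleosome were under it; with a limit of 5 these counts were 7 at or over it and 41 under it with a trivalent nucleosome. With 1 row per distinct span, 15 of the 35 rows with a trivalent nucleosome had an FPKM under 1, and Pearson's r was 0.735. Leaving out rows with an FPKM of 0 in either column gave a median of 1.16 and an r of 0.379. The share of marked positions was 11.1% within 1 kb, 8.48% within 5 kb and 11.3% for rows with 1 symbol. Inside the span alone 6 rows had H3K9me3, and within 5 kb 0 rows had an FPKM of 1 or more without a trivalent nucleosome. Keeping the rows of at most 1 kb, a setting chosen after seeing the data with fewer rows by construction, gave 2 rows at 1 or more, 0 of them without a trivalent nucleosome, 13 with a trivalent nucleosome, 11 of these under 1, a median of 0.0672, an r of 0.776, 18.6% marked positions, and 17 rows with H3K4me3, 15 with H3K9ac, 15 with H3K27ac, 0 with H3K27me3 and 2 with H3K9me3. Depth at single positions is unknown, so an absent mark may be a peak under the authors' cutoffs. No paired analysis was possible because each assay had 1 sample.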
